A study of Homo sapiens with 12 samples.

Results

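The mRNAs of 10 enzymes of glycolysis were followed through RNA-seq of total and polysome-associated RNA of HEK293T cells, a line derived from human embryonic kidney, with and without PRRC2B, an RNA-binding protein that the study examined for a role in translation. The 10 rows were taken from the count table by name, out of 59385 gene names, and were HK2, ALDOA, TPI1, GAPDH, PGK1, PGAM1, ENO1, PKM, LDHA and LDHB. Both groups of cells carried a doxycycline-inducible hairpin, either a non-silencing hairpin (shCtrl) or one against PRRC2B (shPRRC2B), and both received doxycycline for 36 h, so the controls carried the agent too. Each hairpin was represented by 1 clonal line, and differences between clones cannot be told apart from the knockdown. From each line, total RNA and RNA pooled from the polysome fractions of a sucrose gradient were sequenced in 3 biological replicates, which gave 4 groups and 12 libraries.

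Glycolysis splits glucose into pyruvate in the cytosol and yields ATP and NADH. HK2 traps glucose by phosphorylation, aldolase A (ALDOA) and triose phosphate isomerase (TPI1) deliver the trioses, and GAPDH, PGK1, PGAM1, ENO1 and PKM carry them to pyruvate with 2 steps, those of PGK1 and PKM, that make ATP. The lactate dehydrogenase subunits A and B (LDHA and LDHB) interconvert pyruvate and lactate, and GAPDH mRNA is also a common reference in expression assays. Transformed cell lines are known for high glycolytic flux even with oxygen present.

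The bases around the start codon are shown for 5 of the mRNAs on which the results below turn, because the study is about the loading of ribosomes. Each run holds 12 bases before the start codon, the codon in capitals and 15 bases after it, on the transcript's strand, from the canonical GENCODE transcript on GRCh38.
HK2, chr2:74834569-74834598, plus strand: ggccgcggcaggATGattgcctcgcatctg
GAPDH, chr12:6534821-6534850, plus strand: cgctcagacaccATGgggaaggtgaaggtc
PGAM1, chr10:97426296-97426325, plus strand: cagcccgccgccATGgccgcctacaaactg
LDHA, chr11:18396831-18396860, plus strand: tccaagtccaatATGgcaactctaaaggat
LDHB, chr12:21654654-21657756, minus strand, spanning an intron: ctcctgtgcaaaATGgcaactcttaaggaa
PGAM1 held 17 pyrimidines in these 30 bases, HK2 15, LDHA and LDHB 14, and GAPDH 11, beside a median of 14 over 18919 protein-coding genes. At least as many pyrimidines as in PGAM1 were found in 19.2% of all windows and at least as many as in GAPDH in 82.9%, so none of the 5 stood at an extreme. The 5′ UTR of the canonical transcript was 454 nt long in HK2 and 76 nt in GAPDH, with the other 3 between 98 and 117 nt.

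Libraries held 9855734 to 20837542 counts, and levels are given as CPM (the count over each 1e6 counts of the library) scaled by TMM, edgeR's trimmed mean of M-values. PRRC2B, the target of the hairpin, was at 281 ± 28.7 CPM in shCtrl total RNA and 100.3 ± 2.31 CPM in shPRRC2B total RNA (mean ± SD, n = 3), a log2 change of −1.49 (edgeR's quasi-likelihood test, Benjamini-Hochberg adjusted p = 4.25e-06). All 8 markers of the HEK293T line that were examined were above 1 CPM on average in each group, and the leukocyte markers PTPRC and CD3E were at 0 in 11 of 12 libraries each. The polysome replicates differed more among themselves than the total RNA replicates did, with a chi-square per gene of 13.8 to 75.2 against 3.26 to 8.57. Replicate 1 of the shCtrl polysomes stood apart: 8 of the 10 enzymes were lowest of 3 in it, with deviations from the group median of −1.03 for GAPDH and −0.95 for ALDOA on the log2 scale. In the shPRRC2B polysomes replicate 3 was lowest for 7 of the 10, and GAPDH deviated by −0.64 in replicate 1. The pairs with that replicate 1 had a chi-square per gene of 37.8 and 37.4, and the remaining pair 13.8. The total RNA replicates numbered 3 were lowest for 9 of the 10 in each line, but there the spread over all genes was small. The SD of deviations was 0.142 and 0.105, against 0.385 in replicate 1 of the shCtrl polysomes. Results that rest on this polysome library are given with and without it.

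The levels of ALDOA, LDHB and GAPDH need care. In GENCODE 44, a later release than the one counted with, 89.8% of the exon bases of ALDOA (chr16:30064164-30070457) and 76.5% of those of LDHB (chr12:21635342-21757857) are also exons of another gene on the same strand, and 32.8% of those of GAPDH (chr12:6534512-6538374) lie under an antisense RNA. The study's list of counting options names neither assignment of reads to several genes nor a strand setting, so the counts of these 3 mRNAs may cover only part of them, which was not tested. Rows named as pseudogenes of a member held at most 2.1% of that member's count in any library, which was reached by TPI1 (chr12:6867119-6870948).

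The pathway took 1.04 ± 0.0424% of all counts in shCtrl total RNA and 1.01 ± 0.0275% in shPRRC2B total RNA. In the polysomal libraries it took 0.532 ± 0.150% and 0.503 ± 0.0503% (n = 3 each). With TMM scaling its summed CPM was 7269 ± 453 in total and 7425 ± 2183 in polysomal RNA of shCtrl. In shPRRC2B it was 7414 ± 277 and 7104 ± 764, so the lower polysomal share depends on the scaling. Per kilobase of canonical transcript, GAPDH was highest in shCtrl total RNA, at 1071 ± 87.8 CPM per kb. ENO1 (chr1:8861000-8879190) followed at 804 ± 57.6 and PKM (chr15:72199029-72231819) at 628 ± 37.0 CPM per kb. TPI1 at 533 ± 53.8 and LDHA (chr11:18394560-18408425) at 504 ± 10.2 CPM per kb did not differ beyond their spread. PGAM1 (chr10:97426191-97433444) stood at 204 ± 14.5 and PGK1 (chrX:77910739-78129295) at 124 ± 7.74 CPM per kb. LDHB at 38.7 ± 3.72, HK2 (chr2:74834127-74893359) at 23.4 ± 1.30 and ALDOA at 11.0 ± 1.03 CPM per kb closed the order. In shPRRC2B total RNA, ENO1 at 1101 ± 46.6 and GAPDH at 1033 ± 37.8 CPM per kb did not differ beyond their spread.

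**Figure D1:**
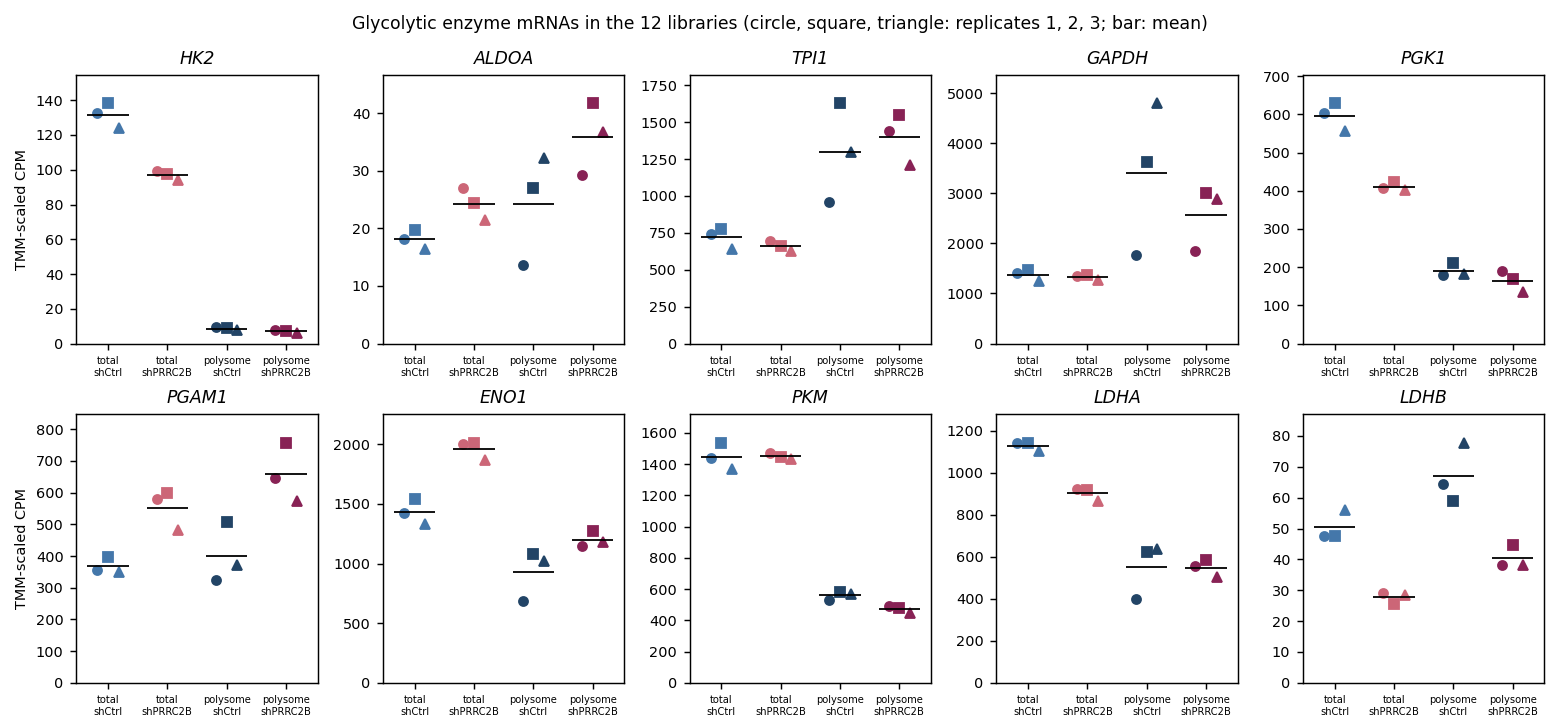
TMM-scaled CPM (y axis, from 0) of the 10 glycolytic enzyme mRNAs in total RNA and polysomes of the shCtrl and shPRRC2B lines (x axis), with 1 point per library and a bar at the mean of 3. LDHB was lower and PGAM1 and ENO1 were higher in shPRRC2B than in shCtrl in both fractions with no overlap. GAPDH ran from 1774 to 4795 CPM among the shCtrl polysome replicates.

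The abundance of the pathway's mRNAs on PRRC2B knockdown was read from total RNA. In edgeR's quasi-likelihood test over 18166 genes, a gene was called where its Benjamini-Hochberg adjusted p was below 0.05 and its change exceeded 0.5 on the log2 scale. The fit took the spread of each gene over all 12 libraries together. The SE and p-value of a total RNA change thus also carry the spread of the polysome replicates. PGAM1 was called higher, PGK1 and LDHB lower, and 7 of the 10 enzymes were not called; over all genes tested, 14.9% were called higher and 14.1% lower. The median of the 10 was −0.087 on the log2 scale beside 0.039 over all genes. In 7 of the 10 mRNAs the 3 libraries of shPRRC2B lay wholly above (3) or wholly below (4) those of shCtrl. Over all genes tested 63% did not overlap, 34.1% above and 28.8% below, so the members' share was near that background. A lower CPM in bulk RNA does not separate fewer expressing cells from less RNA per cell.

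At the entry of the pathway, HK2 total RNA was at 132.9, 138.2 and 123.8 CPM in shCtrl and 99.1, 97.64 and 93.9 CPM in shPRRC2B. The groups did not overlap, and the log2 change of −0.44 ± 0.12 (SE) had an adjusted p of 0.00723 in edgeR's test but stayed under the minimum change. HK2 was called lower with total counts in place of TMM, at −0.52 (adjusted p = 0.00468), and with the transcript length trend removed, at −0.58 (adjusted p = 6.53e-04, edgeR's test). ALDOA, which splits fructose bisphosphate, was at 16.39 to 19.76 CPM in shCtrl and 21.43 to 26.98 CPM in shPRRC2B. Its log2 difference was 0.42 ± 0.22, with an adjusted p of 0.159 in edgeR's test. Under the alternative settings of edgeR, DESeq2 and limma the adjusted p ran from 0.00324 to 0.491. The log2 difference ran from 0.35 to 0.47 and stayed under the minimum change. TPI1 overlapped between the lines, at 638.8 to 778.7 and 630 to 694.9 CPM.

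In the middle of the pathway, PGK1 fell and PGAM1 rose. PGK1, which makes the first ATP of the pathway, was at 603, 628.8 and 555.5 CPM in shCtrl total RNA and 407.1, 423.6 and 402.6 CPM in shPRRC2B. All shPRRC2B libraries lay below all shCtrl libraries, with a log2 change of −0.54 ± 0.13, a fold of 0.690 and an adjusted p of 0.00546 by edgeR's test. PGAM1, the phosphoglycerate mutase of the next step, was at 356.5, 398.2 and 350.3 CPM in shCtrl and 578.9, 597.5 and 481.6 CPM in shPRRC2B. Again the groups did not overlap, and the log2 change was 0.59 ± 0.16, a fold of 1.50, with an adjusted p of 0.0100 by edgeR's test. Both sat close to the minimum change, for without replicate 2 of shCtrl total RNA the change of PGK1 was −0.50 (adjusted p = 0.0280, under the minimum), and without replicate 2 of shPRRC2B total RNA that of PGAM1 was 0.53 (adjusted p = 0.0510, edgeR's test).

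ENO1, the enolase that forms phosphoenolpyruvate, was at 1425, 1539 and 1334 CPM in shCtrl total RNA and 2004, 2014 and 1866 CPM in shPRRC2B. The groups did not overlap, but the log2 difference of 0.45 ± 0.16 stayed under the minimum change although its adjusted p was 0.0316 in edgeR's test. PKM, the pyruvate kinase of the final step, was level between the lines, at 1447 ± 85.4 and 1449 ± 18.8 CPM. GAPDH was at 1377 ± 113 and 1328 ± 48.5 CPM, a log2 difference of −0.052 ± 0.25 (adjusted p = 0.895, edgeR's test). The spread of its polysome replicates entered this SE too. Its total RNA replicates lay within 1251 to 1470 CPM in shCtrl and 1272 to 1361 CPM in shPRRC2B.

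The lactate dehydrogenase subunits differed in size of change. LDHB was at 47.5, 47.7 and 56 CPM in shCtrl total RNA and 29.08, 25.62 and 28.56 CPM in shPRRC2B. The groups did not overlap, and the log2 change of −0.86 ± 0.13, a fold of 0.551, was the largest of the 10 in total RNA, with an adjusted p of 1.27e-04 by edgeR's test. LDHA was at 1103 to 1143 CPM in shCtrl and 864.6 to 922.5 CPM in shPRRC2B, also without overlap, with a log2 difference of −0.32 ± 0.15 and an adjusted p of 0.116 in edgeR's test. That adjusted p depended on the setting. Under the alternative settings of edgeR, DESeq2 and limma it ran from 1.05e-05 to 0.709. The log2 difference ran from −0.40 to −0.28 and stayed under the minimum change. The ratio of LDHA to LDHB counts was 22.6 ± 2.49 in shCtrl and 32.6 ± 2.87 in shPRRC2B total RNA, and 8.31 ± 2.20 and 13.6 ± 0.771 in the polysomes.

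**Figure D2:**
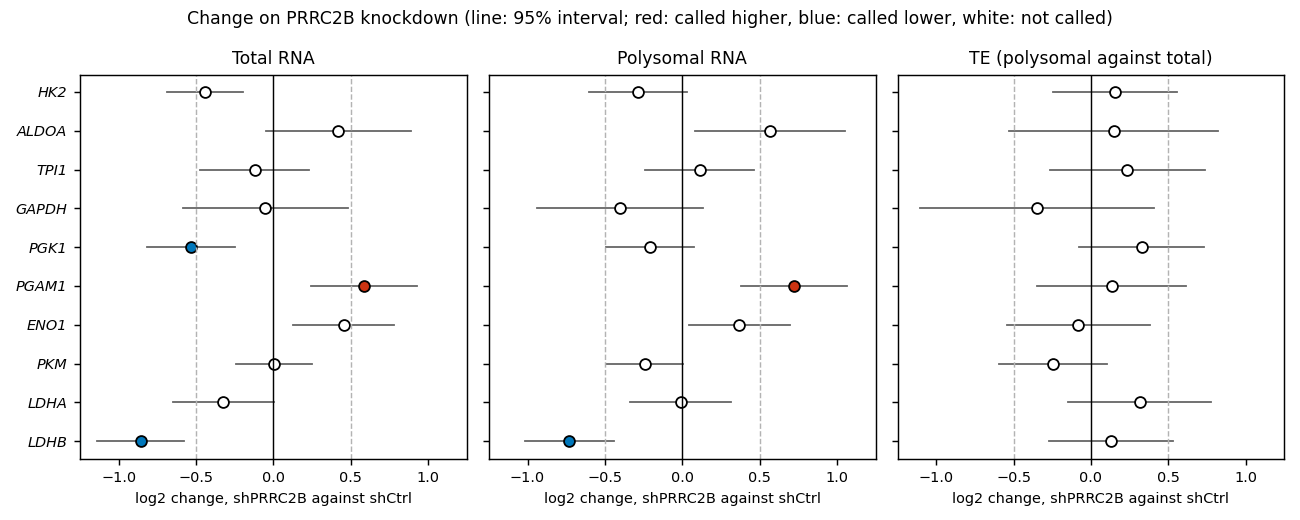
Log2 change of each enzyme mRNA in shPRRC2B against shCtrl (x axis) in total RNA, polysomal RNA and TE, with the 95% interval of edgeR's fit as a line and dashed lines at the minimum change of 0.5. Only LDHB, PGK1 and PGAM1 are filled in total RNA and LDHB and PGAM1 in polysomal RNA, and every TE interval crosses 0.

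In polysomal RNA, PGAM1 was called higher and LDHB lower, and the other 8 enzymes were not called, while 18.4% of all genes tested were called higher and 21.4% lower. PGAM1 polysomal RNA was at 323, 506.1 and 372.2 CPM in shCtrl and 647.3, 757.5 and 574.3 CPM in shPRRC2B. The shPRRC2B libraries were all above, with a log2 change of 0.72 ± 0.16 (adjusted p = 0.00168), and without replicate 1 of the shCtrl polysomes it was 0.50 (adjusted p = 0.00966) and under the minimum in edgeR's test. LDHB was at 64.31, 58.77 and 77.81 CPM in shCtrl polysomes and 38.34, 44.59 and 38.33 CPM in shPRRC2B polysomes. It was wholly lower in shPRRC2B, by a log2 change of −0.73 ± 0.14 (adjusted p = 3.52e-04, edgeR's test). ALDOA, which had only 145 to 437 polysomal counts a library, differed by 0.57 ± 0.23, with overlapping groups and an adjusted p of 0.0539 in edgeR's test. It was 0.18 without replicate 1 of the shCtrl polysomes (adjusted p = 0.369), 0.37 without replicate 2 of the shPRRC2B polysomes, and 0.72 and called higher without replicate 3 of the shCtrl polysomes (adjusted p = 0.0196, edgeR's test). PGK1, which had fallen in total RNA, differed by −0.21 ± 0.14 in the polysomes (adjusted p = 0.226, edgeR's test), with overlap. ENO1 lay wholly above in shPRRC2B, by 0.37 ± 0.16 (adjusted p = 0.0624, edgeR's test), or 0.10 to 0.39 with single libraries left out. PKM lay wholly below, by −0.24 ± 0.12 (adjusted p = 0.104, edgeR's test). The groups did not overlap in 4 of the 10, 2 above and 2 below. Over all genes tested 43.1% did not overlap, 21.6% above and 21.5% below.

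Translation efficiency (TE) was taken as the log2 ratio of polysomal to total RNA, and its change as the difference of this ratio between the lines, tested as an interaction in the same fit. None of the 10 enzymes was called in either direction, beside 10.7% of all genes called higher and 16.4% called lower. None had an unadjusted p under 0.05 by edgeR in this fit, and neither DESeq2 nor limma called 1. For PKM the adjusted p ran from 0.0348 to 0.9997 under the alternative settings of edgeR, DESeq2 and limma. Its TE change ran from −0.36 to −0.042 there and stayed under the minimum change. The values ran from −0.35 for GAPDH to 0.33 for PGK1, 7 above 0 and 3 below, with a median of 0.14 beside −0.034 over all genes. PGK1 at 0.33 ± 0.19 and LDHA at 0.32 ± 0.22 were highest, and PKM at −0.25 ± 0.17 was lowest after GAPDH. LDHA was at 0.088 without replicate 1 of the shCtrl polysomes and PGK1 at 0.15 without replicate 1 of the shPRRC2B polysomes.

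These values do not show that the TE of the pathway stayed the same. The 95% interval of each of the 10 held 0, but each also reached beyond a log2 change of 0.5 on at least 1 side. That of PKM, the narrowest, ran from −0.60 to 0.10 and that of GAPDH, the widest, from −1.11 to 0.41. For PGK1 the interval was −0.076 to 0.73.

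The TE value of GAPDH depended on single libraries, in either direction. GAPDH was at 1774, 3626 and 4795 CPM in shCtrl polysomes and at 1844, 3001 and 2876 CPM in shPRRC2B polysomes. The groups overlapped only through shCtrl replicate 1, the lowest of all 6. With it the TE change of GAPDH was −0.35 ± 0.36 (adjusted p = 0.505), and without it −0.70 (adjusted p = 0.0185), which was called lower in edgeR's test. Its polysomal RNA moved likewise, from −0.40 (adjusted p = 0.213) to −0.80 (adjusted p = 4.89e-04) in edgeR's test. Without replicate 1 of both polysome groups, a choice made after the values were seen, the TE change was −0.51 (adjusted p = 0.0209, edgeR's test), and without shCtrl replicate 3 it was −0.075 (adjusted p = 0.908).

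Within each line, the enzymes ranged widely in how far their mRNA was found with polysomes. The log2 ratio of polysomal to total RNA depends on how the fractions are scaled to each other: its median over all genes was −0.22 in both lines with TMM and −1.22 and −1.16 with total counts. Values are therefore given relative to the median gene. In shCtrl cells GAPDH was 1.53 above the median gene and TPI1 1.07 above, and ALDOA at 0.64, LDHB at 0.64 and PGAM1 at 0.34 lay above it too. Below it were ENO1 at −0.40, LDHA at −0.81, PKM at −1.14, PGK1 at −1.42 and HK2 at −3.70. Over the scalings tried each of these moved by less than 0.2, and none changed sign. A scaling shifts all genes of a library alike, so the centring removes most of its effect and this stability is no test. Without centring, LDHB, ALDOA, TPI1 and PGAM1 had negative ratios in shCtrl with total counts.

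HK2 was the member with the least polysomal RNA for its total RNA. It had 68 to 100 polysomal counts a library in shCtrl and 65 to 92 in shPRRC2B, or 8.63 ± 0.966 and 7.08 ± 0.866 CPM, against 132 ± 7.31 and 96.9 ± 2.69 CPM in total RNA. Only 4.53% of all genes had a lower ratio in shCtrl and 8.40% in shPRRC2B. The order of the enzymes was much alike in the other line, where TPI1 stood highest at 1.30 above the median gene, GAPDH at 1.17 and HK2 at −3.55.

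On the TMM scale, with no centring on the median gene, 2 enzymes (GAPDH and TPI1) were called higher in polysomes than in total RNA in shCtrl and 5 (HK2, PGK1, PKM, LDHA and ENO1) lower, when 32.5% of all genes were called higher and 39.8% lower. In shPRRC2B, 4 were called higher (GAPDH, TPI1, LDHB and ALDOA) and the same 5 lower, beside 36.6% and 42.3% of all genes. With total counts in place of TMM no enzyme was called higher in either line. ENO1 without shCtrl polysome replicate 1 was at −0.48 and under the minimum in shCtrl, and ALDOA was at 0.68 and called higher. The calls of LDHB and ALDOA in shPRRC2B sat near the minimum and ended without any of several single libraries (as low as 0.42 and 0.39).

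Transcript length went with this order. The canonical transcripts of GAPDH, LDHB and TPI1 are 1285, 1303 and 1351 nt long, those of PGK1 and HK2 4812 and 5626 nt. Over the 10 members, the log2 ratio of polysomal to total RNA and log2 length had a Pearson r of −0.92 and a Spearman rho of −0.95 in shCtrl and −0.90 and −0.92 in shPRRC2B (n = 10 genes, all measured in the same libraries). The same held more loosely over 15762 genes, with r of −0.45 and −0.53. Against the genes of the same length class (10 classes of about 1576 genes), all 10 enzymes were below the median in shCtrl and 9 in shPRRC2B, PGK1 being the exception. ENO1, PKM, LDHA, LDHB and HK2 were below the lower quartile of their length class in both lines.

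**Figure D3:**
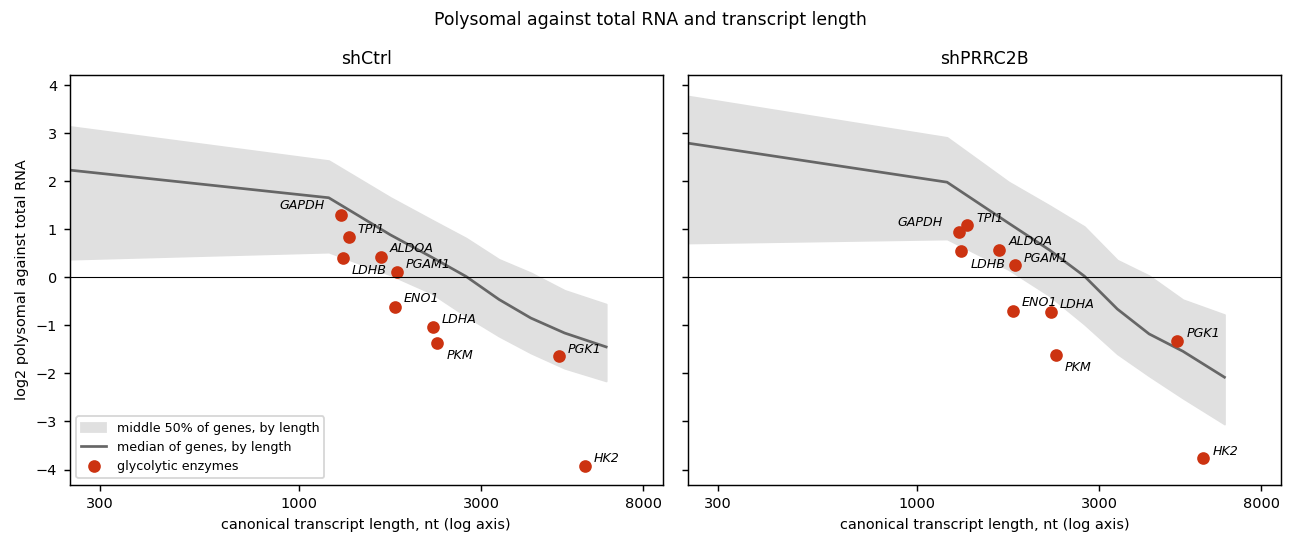
Log2 ratio of polysomal to total RNA (y axis, TMM scale) against canonical transcript length in nt (x axis, log scale) in shCtrl and shPRRC2B, with the median and middle 50% of all genes in length classes (the longest class is not drawn). The 10 enzymes fall from GAPDH and TPI1, short and above 0, to HK2, long and near −4.

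The change in TE also went with length. Its median fell from 0.50 in the shortest of the 10 length classes to −0.77 in the longest. When this trend was removed by a lowess curve in each library, the 2 longest enzyme mRNAs were called higher in TE, PGK1 at 0.72 (adjusted p = 0.00671) and HK2 at 0.64 (adjusted p = 0.0183, edgeR's test), and GAPDH was at −0.65 (adjusted p = 0.193). These values compare an mRNA with others of its length, and whether length itself or a property that goes with it sets the trend was not tested.

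GAPDH was then set beside 17 other genes in common use as references. In total RNA its change was the second smallest in size of 18, after EEF1A1, a translation elongation factor, at 0.0047. It was among 6 references not called in total RNA, polysomal RNA or TE, with ALAS1, B2M, EEF1A1, TBP and TFRC (EEF1A1 and these were named after their values were seen). The TE values of the 18 ran from −2.29 for POLR2A, a subunit of RNA polymerase II, to 0.65 for RPLP0, a ribosomal stalk protein. Of the 17 without GAPDH 5 fell and none rose by the test, beside 16.4% and 10.7% of all genes. ACTB, the β-actin gene, fell in TE by 1.46 ± 0.21 (adjusted p = 1.12e-04, edgeR's test). Not all of these references are neutral in the paper, which names ACTB, YWHAZ and HSP90AB1 as mRNAs bound by PRRC2B. It classes YWHAZ as lower in TE and ACTB as unchanged. Its RT-qPCR of polysome fractions, at times earlier than 36 h, showed no shift of ACTB.

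The error of GAPDH in the polysomes was another matter. Its standard error for TE, 0.36, ranked 1 of 18. The highest over the lowest shCtrl polysome replicate was 2.70, more than in 98.7% of the 1834 genes that averaged 100 CPM or more, whose median was 1.34. In shPRRC2B polysomes it was 1.63, above 90.7% of these genes. In total RNA it was 1.18 and 1.07, above 65.1% and 38.8%. When all libraries were scaled to GAPDH, 25 genes were called higher in TE and 9 lower, instead of 1935 and 2981 with TMM, and no enzyme was called in total or polysomal RNA.

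**Figure D4:**
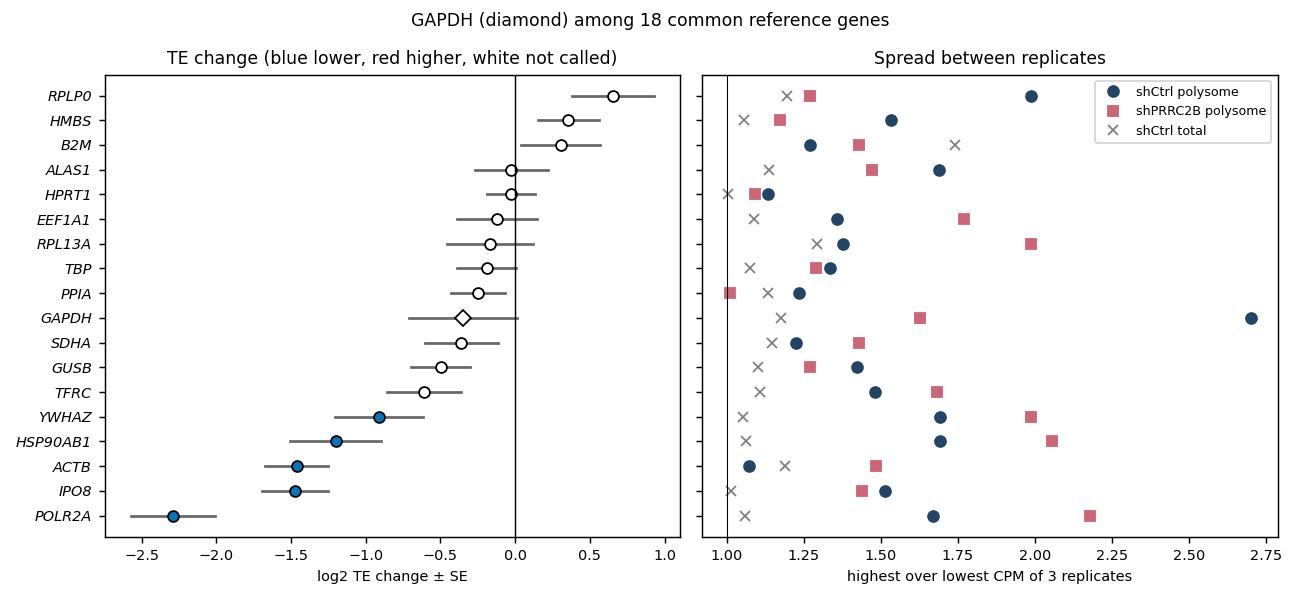
Left, log2 TE change ± SE (x axis) of GAPDH and 17 other reference genes; right, the highest over the lowest CPM of 3 replicates (x axis) in shCtrl polysomes, shPRRC2B polysomes and shCtrl total RNA. GAPDH has the longest error bar, 0.36 to each side, and the widest shCtrl polysome spread, 2.70.

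ALDOA shared the low shCtrl polysome replicate with GAPDH. It was at 13.57, 27.11 and 32.26 CPM there, and the ratio of its counts to those of GAPDH varied little, at 0.00729 ± 4.91e-04. The ratio of PKM to GAPDH in the same libraries was 0.193 ± 0.0945 and that of ENO1 0.299 ± 0.0865. Of the other enzymes with at least 100 CPM, TPI1 was most like GAPDH over the 12 libraries, ranking 43 of 1833 genes, with a root mean square difference of 0.329 in centred log2 CPM. The 5 genes outside the lists nearest to GAPDH were PDLIM1, DCTN2, MDH2, OLA1 and PSMD4, at 0.18 to 0.239.

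The rest of the pathway and its surroundings were read from lists of related genes. The counts called, here and in the paragraphs that follow, stand beside the shares over all genes tested. These were 14.9% higher and 14.1% lower in total RNA, and 10.7% higher and 16.4% lower in TE. Of 21 other glycolytic enzymes and isozymes, 11 were expressed enough for the test. In total RNA HK1 alone rose and 3 fell, PFKL, ENO2 and ENO3 (median 0.10), and 2 rose when any 1 of 7 of the 12 libraries was left out. ENO2, the neuronal enolase, fell by 1.72 ± 0.14 (adjusted p = 1.75e-07) and HK1, the housekeeping hexokinase, rose by 0.61 ± 0.12 (adjusted p = 7.11e-04, edgeR's test). In TE 3 rose, ENO2, ALDOC and ENO3, and 2 fell, HK1 and PFKM (median −0.045). With replicate 3 of the shCtrl total RNA left out, or replicate 2 of the shPRRC2B total RNA, 1 of these 11 fell in TE, and the TE call of PFKM ended when any 1 of 3 libraries was left out.

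Among 12 tested genes of glucose and lactate transport and of the control of phosphofructokinase, 3 fell and 1 rose in total RNA, and 2 rose and 2 fell in TE (median −0.54). The TE call of PFKFB3, 1 of the 2 that rose, ended when any 1 of 8 of the 12 libraries was left out. SLC2A1 and SLC2A3, glucose transporters, changed in total RNA by −0.61 ± 0.14 and −1.83 ± 0.17 (adjusted p = 0.00358 and 5.48e-07, edgeR's test). PFKFB4, which makes the activator of phosphofructokinase, fell by 1.76 ± 0.16. SLC16A1, the lactate and pyruvate carrier MCT1, fell in TE by 1.50 ± 0.22 (adjusted p = 1.71e-04, edgeR's test) with a total RNA value of −0.15.

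Of 9 pentose phosphate genes, TKT, TALDO1 and PGD fell in TE and none rose (median −0.37), while TALDO1, PGD and TKTL1 rose in total RNA. TKTL1 was near the floor in total RNA, at 0.234 ± 0.237 CPM in shCtrl and 0.870 ± 0.0275 CPM in shPRRC2B. Its total RNA call ended when any 1 of 4 of the 12 libraries was left out. With 1 library left out, 1 to 4 fell in TE, and 1 when replicate 1 or 3 of the shCtrl total RNA, or replicate 1 or 2 of the shPRRC2B total RNA, was left out. TKT lost its TE call when any 1 of 7 of the 12 libraries was left out (adjusted p up to 0.0838) and TALDO1 when any 1 of 4 was (up to 0.0648, edgeR's test). Of 18 genes of pyruvate entry and gluconeogenesis, 1 rose and 3 fell in TE (median −0.33), with DLD and DLAT, subunits of the pyruvate dehydrogenase complex, at −1.38 ± 0.23 and −0.80 ± 0.20. In total RNA 5 of these 18 rose and 4 fell, or 2 fell without replicate 3 of either total RNA group. PDK1, a kinase that switches the complex off, fell in total RNA by 0.89 ± 0.17 (adjusted p = 7.20e-04, edgeR's test).

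Of 22 tested genes in the list of HIF and MYC regulators and hypoxia targets outside glycolysis, 9 fell and 2 rose in total RNA. Their median was −0.48. Of all genes tested, 14.1% fell and 14.9% rose in total RNA, and 16.4% fell and 10.7% rose in TE. BNIP3, a mitophagy receptor induced by hypoxia, changed by −0.87 ± 0.12, NDRG1 by −0.53 ± 0.15, VHL, which targets HIF for degradation, by −1.16 ± 0.13 and MYC by −0.59 ± 0.16. In TE 6 rose and 5 fell (median −0.080), but 3 rose when replicate 1 of the shPRRC2B total RNA or replicate 3 of its polysomes was left out. BNIP3 and VEGFA, the angiogenic growth factor, rose in TE by 1.60 ± 0.17 and 1.24 ± 0.38 (the call of VEGFA ended when any 1 of 4 of the 12 libraries was left out, with an adjusted p of up to 0.0805 in edgeR's test), and HIF1A and EPAS1, the oxygen-regulated HIF subunits, changed by −1.67 ± 0.41 and −1.58 ± 0.27.

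**Figure D5:**
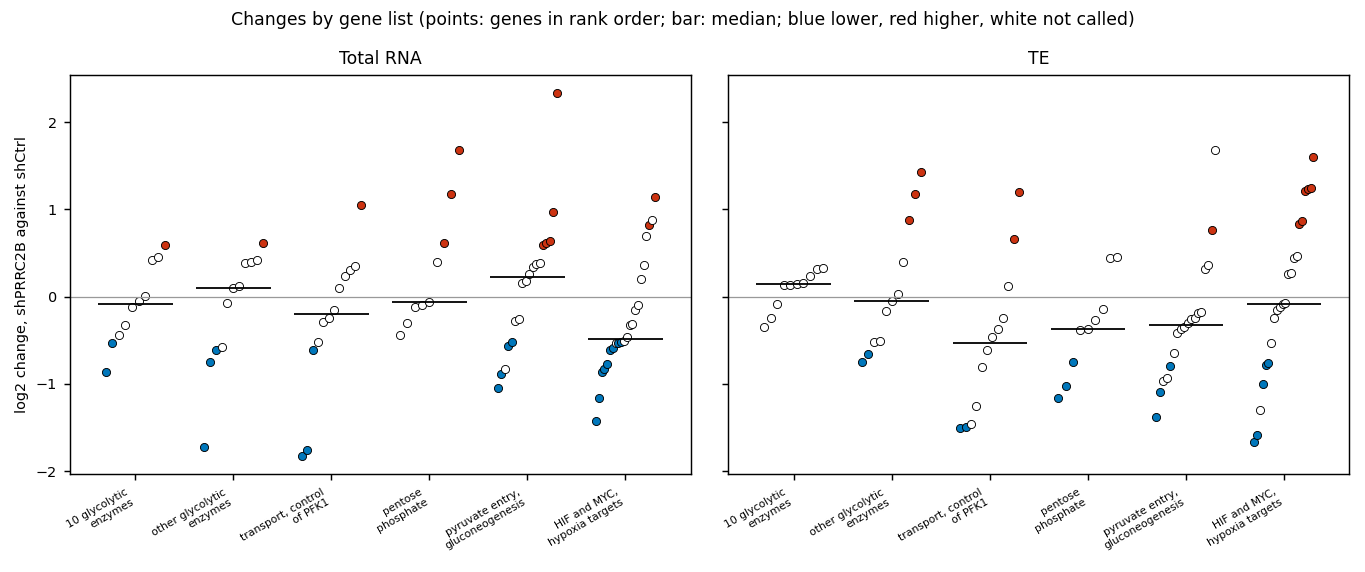
Log2 change in shPRRC2B against shCtrl (y axis) of the 10 enzymes and of the tested genes of 5 lists in total RNA (left) and TE (right), with 1 point per gene and a bar at the median. The 10 enzymes span −0.86 to 0.59 in total RNA and −0.35 to 0.33 in TE, where none is filled, while each other list holds filled points in TE.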

How the data were processed

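The authors trimmed paired-end reads with Trimmomatic 0.36, aligned them to GRCh38 with HISAT2 (2.1.0 in the submitters' processing notes) and counted pairs per gene name with featureCounts of Subread 2.0.1 on GENCODE 38, ignoring pairs marked as duplicates, after poly(A) enrichment; the deposited values are raw counts of read pairs per gene. Total RNA came from whole cells and polysomal RNA from lysates. From these counts, edgeR 4.0.16 in R 4.3.3 gave filterByExpr filtering (minimum count 10), TMM scaling over the 12 libraries, and quasi-likelihood tests in 1 fit of 4 groups, with Benjamini-Hochberg adjustment over 18166 genes and a call at adjusted p under 0.05 with a log2 change beyond 0.5. The TE change is the interaction. DESeq2 1.42.0, limma 3.58.1 (log2(CPM + 1)), other scalings, filters, a length correction and omission of each library were alternatives. The fit was tested on simulated data. Lengths, positions and sequences are from GENCODE 44, a later release than the counts used, so 86.8% of tested genes have a length (15762). All 10 members were named, and of each list at most 4 called genes per direction with the highest mean CPM. Some genes of the lists and 1 sequence are not reported here. The members, lists and tests were chosen with earlier results of these data known. Replicate numbers showed no clear pairing of libraries: 18 same-numbered pairs had correlations of −0.107 to 0.098 in their deviations from group means. Total and polysomal libraries of the same line and number were at 0.011 to 0.058. Such values cannot exclude a shared culture, and pairs of unlike number were not set beside them.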

Additional observations from a re-analysis of the deposited data

Results flagged for a closer look

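None of the 10 enzymes is among the results below, which are genes of the surrounding lists and reference genes whose ratio of polysomal to total RNA differed between the lines by the test of that difference (edgeR's quasi-likelihood test of the interaction, adjusted p under 0.05). With 3 libraries a group, single libraries were not tested for standing apart. Among other glycolytic enzymes the log2 TE change was 0.88 for ENO2, 1.17 for ALDOC, 1.43 for ENO3, −0.75 for HK1 and −0.66 for PFKM. For transport and the control of phosphofructokinase it was 0.65 for PFKFB3, 1.20 for SLC2A3, −1.50 for both SLC16A1 and PFKFB2. In the pentose phosphate pathway it was −1.16 for TKT, −0.75 for TALDO1 and −1.02 for PGD. For pyruvate entry it was 0.76 for PDK2, −1.38 for DLD, −0.80 for DLAT and −1.10 for PDP1. In the list of HIF and MYC regulators and hypoxia targets it was 1.60 for BNIP3, 1.24 for VEGFA, 0.84 for EGLN1 and 0.87 for KDM3A, and −1.01 for MLXIP, −1.67 for HIF1A, −0.78 for ARNT and −1.58 for EPAS1. Of the reference genes it was −1.20 for HSP90AB1, −1.46 for ACTB, −0.91 for YWHAZ and −2.29 for POLR2A. The call of KDM3A ended when any 1 of 10 of the 12 libraries was left out (adjusted p up to 0.113, edgeR's test). That of YWHAZ ended with any 1 of 5 (up to 0.0638, edgeR's test). The calls of PFKFB3, PFKM, TKT, TALDO1 and VEGFA also depended on single libraries, as given above.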

How the results depend on the processing

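Depth was enough for every member, with at least 65 counts in each library, while the spread of the polysome replicates and the annotation of ALDOA and LDHB limit single values. Counts of enzymes called are given as higher and lower. For TE (0 and 0), removal of the length trend gave 2 higher, with or without a replicate block, and omission of both polysome libraries numbered 1 gave 1 lower. Leaving out single libraries gave 0 higher and 0 to 1 lower. For total RNA (1 and 2), scaling to GAPDH gave 0 and 0, dropping the minimum change gave 2 higher (ENO1 added) and 3 lower (HK2 added), and leaving out ALDOA and LDHB gave 1 lower. Single libraries left out gave 0 to 1 higher and 1 to 2 lower. HK2 was also added to the lower calls with total counts and with the length correction, with or without the block, for 3 lower each. For polysomal RNA (1 and 1), TMM within each fraction, at least 10 counts in every library, limma and the replicate block each gave 2 higher, all with ALDOA added. Scaling to GAPDH gave 0 and 0, the length correction with or without the block and omission of both libraries numbered 1 gave 2 lower, and leaving out ALDOA and LDHB gave 0 lower. Single libraries left out gave 0 to 2 higher and 1 to 2 lower. For polysomal against total RNA in shCtrl (2 and 5), total counts, TMM within each fraction and the length correction gave 0 higher and 8 lower, the length correction with the block 0 and 9, and scaling to GAPDH 0 higher. In shPRRC2B (4 and 5), total counts, TMM within each fraction and scaling to GAPDH gave 0 higher, the length correction with or without the block 0 and 9, and testing every gene with at least 1 count or leaving out ALDOA and LDHB 2 higher. Single libraries left out gave 2 to 3 higher and 4 to 5 lower in shCtrl, and 2 to 4 higher and 5 lower in shPRRC2B.

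The cause of the changes of sign below was not tested, except that scalings set apart for the 2 fractions shift every ratio of polysomal to total RNA by construction. Scaling to GAPDH moved the median of all genes to 0.15 in TE, 0.088 in total RNA and 0.20 in polysomal RNA. With the length trend removed, values are relative to genes of the same length. TE was then −0.15 for LDHB, −0.069 for ALDOA, −0.036 for TPI1 and −0.040 for PGAM1 (−0.14, −0.059, −0.034 and −0.029 with the replicate block). Total RNA of PKM was −0.028 with and without the block. Polysomal RNA was 0.074 for PGK1, −0.13 for TPI1 and 0.067 for HK2 (0.073, −0.13 and 0.068 with the block). Polysomal against total RNA in shCtrl was −0.11 for GAPDH, −0.99 for LDHB, −0.57 for ALDOA, −0.49 for TPI1 and −0.70 for PGAM1 (−0.19, −0.99, −0.60, −0.50 and −0.71 with the block). In shPRRC2B it was −0.76 for GAPDH, 0.087 for PGK1, −1.14 for LDHB, −0.64 for ALDOA, −0.53 for TPI1 and −0.74 for PGAM1 (−0.80, 0.082, −1.13, −0.66, −0.54 and −0.74 with the block).

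Scaled to GAPDH, ENO1 had a TE of 0.20, polysomal RNA was 0.069 for PGK1, 0.012 for PKM and 0.35 for LDHA, and polysomal against total RNA was −0.69 for LDHB, −0.85 for ALDOA, −0.32 for TPI1 and −1.01 for PGAM1 in shCtrl and −0.36 for LDHB, −0.36 for ALDOA and −0.63 for PGAM1 in shPRRC2B. With total counts, PKM total RNA was −0.071 and polysomal against total RNA −0.59 for LDHB, −0.59 for ALDOA, −0.15 for TPI1 and −0.87 for PGAM1 in shCtrl and −0.40, −0.38 and −0.69 for LDHB, ALDOA and PGAM1 in shPRRC2B. TMM within each fraction gave PKM −0.043 in total RNA, LDHA 0.011 in polysomal RNA, and −0.60, −0.59, −0.16 and −0.88 for the same 4 in shCtrl and −0.40, −0.38 and −0.68 for the same 3 in shPRRC2B.

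PKM total RNA was −0.036 with every gene of at least 1 count, −0.019 with at least 10 counts in every library, −0.040 with only the groups compared and −0.046 without both polysome libraries numbered 1. The last of these also gave TE values of −0.062 for ALDOA, −0.011 for TPI1 and −0.033 for PGAM1 and a polysomal value of −0.18 for TPI1. PGAM1 in shCtrl was −0.0078 with every gene of at least 1 count. LDHA polysomal RNA was 0.037 with at least 10 counts in every library, 0.020 with limma and 0.0015 with the replicate block. With single libraries left out, TE ran from −0.0055 to 0.20 for LDHB, −0.19 to 0.35 for ALDOA and −0.039 to 0.29 for PGAM1, total RNA from −0.046 to 0.047 for PKM, polysomal RNA from −0.29 to 0.0052 for LDHA and −0.15 to 0.21 for TPI1, and PGAM1 in shCtrl polysomal against total RNA from −0.10 to 0.22.

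The replicate block, for which pairing by number was neither shown nor excluded, changed no other call of an enzyme, and the block within each line none. Over all genes it gave 1812 genes higher and 2807 lower in TE, against 1935 and 2981, while the length correction gave 1724 and 1701, and 1596 and 1546 with the block. Without replicate 2 of shCtrl total RNA 1285 were higher. Of the genes named from the lists, 1086 of 1200 values under other settings and 946 of 1032 with a library left out kept their call, the others kept their direction and lost it, and none turned.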
